A study of Ovis aries with 9 samples.

Results

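Ovine granulosa cells (GCs) cultured without glucose (CON, 3 libraries) were compared with GCs given any glucose, for which the LOW group (8.4 mM, 3 libraries) and the HIGH group (33.6 mM, 3 libraries) were pooled into 6 libraries. The members are the genes that carry a symbol in the deposited gene table, 14153 of 39157 genes, and the question was which of them shift the same way in both glucose groups. Of these, 10995 reached an FPKM of 0.1 in at least 3 libraries and spanned at least 300 bases, and were tested. FPKM (fragments per kilobase of transcript, relative to the total of the library) were scaled so that the libraries share a median, and every level below is on that scale. A difference is given as log2(FPKM + 0.1), glucose minus CON, which understates the change of genes with low levels.

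The cells came from thin-tailed Han ewes. They were aspirated from small antral follicles of many ovaries and pooled, so that a library stands for a culture of mixed animals and not for an animal, and p-values measure only the spread between these cultures. All 3 groups, CON included, first spent 8 h without glucose and serum, after which CON stayed at 0 mM and LOW and HIGH received their glucose for a further 24 h. RNA depleted of ribosomal RNA was sequenced. The deposited counts per kilobase at an FPKM of 1 were 71.3, 68.9 and 57.6 in CON and 48.0 to 65.0 in the glucose libraries. These factors were not taken as depth, since the deposited counts are rescaled FPKM. The paper lists the most clean reads for CON 1, and more for HIGH 1 than for CON 2. Genes near 0.1 rest on few fragments.

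GCs are the somatic cells that line the ovarian follicle around the oocyte. They take up glucose and pass the products of glycolysis to the oocyte. In many cell types, glucose that has entered the cell is phosphorylated, and the phosphorylated sugar activates the transcription factors MondoA and ChREBP, whose best known target is TXNIP. Glycolysis is further set by the bifunctional PFKFB enzymes, and cholesterol synthesis, from which GCs also draw the substrate for steroids, is driven by the SREBP transcription factors when sterols are low.

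Markers of the cells were read first. Of 12 granulosa markers, 8 had a row under their symbol; CYP19A1, FOXL2, AMH and INHBB did not and were not analysed here. FSHR, the receptor that defines follicular GCs, lay at 0.230 to 0.587 FPKM, whereas CYP11A1, the enzyme that starts steroid synthesis, lay at 139 to 206. Summed over the 8 markers, CON ranged from 195 to 251, LOW from 193 to 206 and HIGH from 172 to 178. The sum of the 10 theca and stroma markers ranged from 4734 to 6997 (CON), 5568 to 6044 (LOW) and 4576 to 6138 (HIGH), mainly LUM, TAGLN and ACTA2, while the theca markers CYP17A1 and INSL3 stayed below 0.43. Within this list PDGFRA, COL1A1 and COL1A2, which mark fibroblasts, had group means of 29.3, 25.3 and 141 in CON, 35.6, 25.3 and 138 in LOW, and 46.5, 78.3 and 243 in HIGH. The pooled log2 fold changes were 0.54 for PDGFRA (limma unadjusted p 0.0297), 0.79 for COL1A1 (limma unadjusted p 0.0392) and 0.38 for COL1A2 (limma unadjusted p 0.0806). The other tested members of the list had 0.13 (COL3A1), 0.03 (LUM), -0.06 (DCN), -0.09 (ACTA2), -0.24 (TAGLN) and -0.55 (CYP17A1). Of 6 endothelial markers, 5 were below 0.1 in all libraries. The 7 leukocyte markers summed to 15.4 to 23.2. The macrophage marker CD68 had means of 11.9 in CON, 10.2 in LOW and 8.10 in HIGH (log2 fold change -0.37, limma unadjusted p 0.0305). The other leukocyte markers had log2 fold changes of 0.87 (PTPRC), 0.05 (CSF1R), 0.00 (CD3E), -0.01 (CD14), -0.17 (LYZ) and -0.39 (AIF1). The 5 oocyte markers found of 7 summed to at most 1.18. Whether the make-up of the cultures had a part in the differences below was not tested, and in bulk RNA fewer cells of a type and less RNA per cell cannot be told apart.

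Glucose raised 3 genes, which is 0.0273% of the tested genes with a symbol. The call required a limma p below 0.05 after Benjamini-Hochberg adjustment over the 24365 genes tested in the table, of which 0.0246% were called, together with a log2 fold change beyond 1 in either direction. They were TXNIP, ARRDC4 and COPS8. No gene with a symbol was lower at these thresholds, against 158 at an unadjusted p under 0.05. At that unadjusted level 253 genes passed (2.30%), of which 95 were higher with glucose (0.864%) and 158 lower (1.44%). The 253 are fewer than the share of 0.05 that this threshold passes where nothing differs. With FPKM as deposited, without the scaling, these counts were 42 higher and 536 lower, so the balance of directions rests on the scaling.

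TXNIP encodes thioredoxin-interacting protein, an arrestin that binds thioredoxin and restrains glucose uptake. It lies at 1:98336652-98340541 in the coordinates of the files, whose genome build is not given in the sources used here. Its level was 67.9, 88.8 and 106.9 FPKM in the CON libraries. In the 6 glucose libraries it ran from 176 to 233, with a median of 215. The lowest glucose library thus stood well above the highest CON library. The means were 87.9 ± 19.5 (SD, n = 3) and 212 ± 20.5 (SD, n = 6), a ratio of 2.41, and the log2 fold change was 1.29 (SE 0.15, limma adjusted p 0.0375).

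ARRDC4 is the arrestin most similar to TXNIP and another known target of MondoA. The gene lies at 18:7884509-7890714. The CON libraries gave 15.7, 14.1 and 12.5 FPKM, and the glucose libraries 28.9 to 44.7 with a median of 32.7. Again there was no overlap. The ratio of the means was 2.43 and the log2 fold change 1.27 (SE 0.15, limma adjusted p 0.0375).

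COPS8 encodes a small subunit of the COP9 signalosome, the complex that removes NEDD8 from cullin ubiquitin ligases. It lies at 1:3870976-3885600. Its level was 2.86, 3.14 and 3.23 in CON and 6.56 to 10.1 with glucose (median 7.56), so that CON was again lower throughout. The log2 fold change was 1.32 (SE 0.14, limma adjusted p 0.0332). Only 2.47% of the FPKM of COPS8 came from its annotated transcript, and the rest from 2 transcripts assembled by the authors at the same locus. TCONS_00014415 had 0.0547, 2.43 and 2.18 in CON, 7.31, 0 and 0 in LOW, and 6.56 to 9.48 in HIGH. TCONS_00014416 had 2.80, 0.715 and 0.826 in CON, 0.597, 6.22 and 6.54 in LOW, and 0.263 to 0.937 in HIGH. No single transcript was thus higher in all glucose libraries than in CON, and the shift in both groups holds for their sum. From annotated transcripts alone the log2 fold change was 0.86 (SE 0.55, limma adjusted p 0.942), whereas TXNIP and ARRDC4 each have 1 transcript, the annotated one.

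The 3 calls lay close to the threshold. The 6 genes called over the whole table include ENSOARG00000012662 and ENSOARG00000008115, which met the filter through 1 glucose group. Both ranked ahead of TXNIP, ARRDC4 and COPS8 by p, and this lowers the adjusted p of these 3 genes. An adjustment over the table without those 2 genes was not run. The fit on genes with a symbol only called the same 3. In the 9 fits that each left out 1 library, 7 called none of the 3. ARRDC4 and COPS8 stayed called without HIGH 3, and TXNIP stayed called without CON 3, while the log2 fold change remained between 1.11 and 1.44 for TXNIP, 1.18 and 1.35 for ARRDC4 and 1.26 and 1.39 for COPS8.

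**Figure D1:**
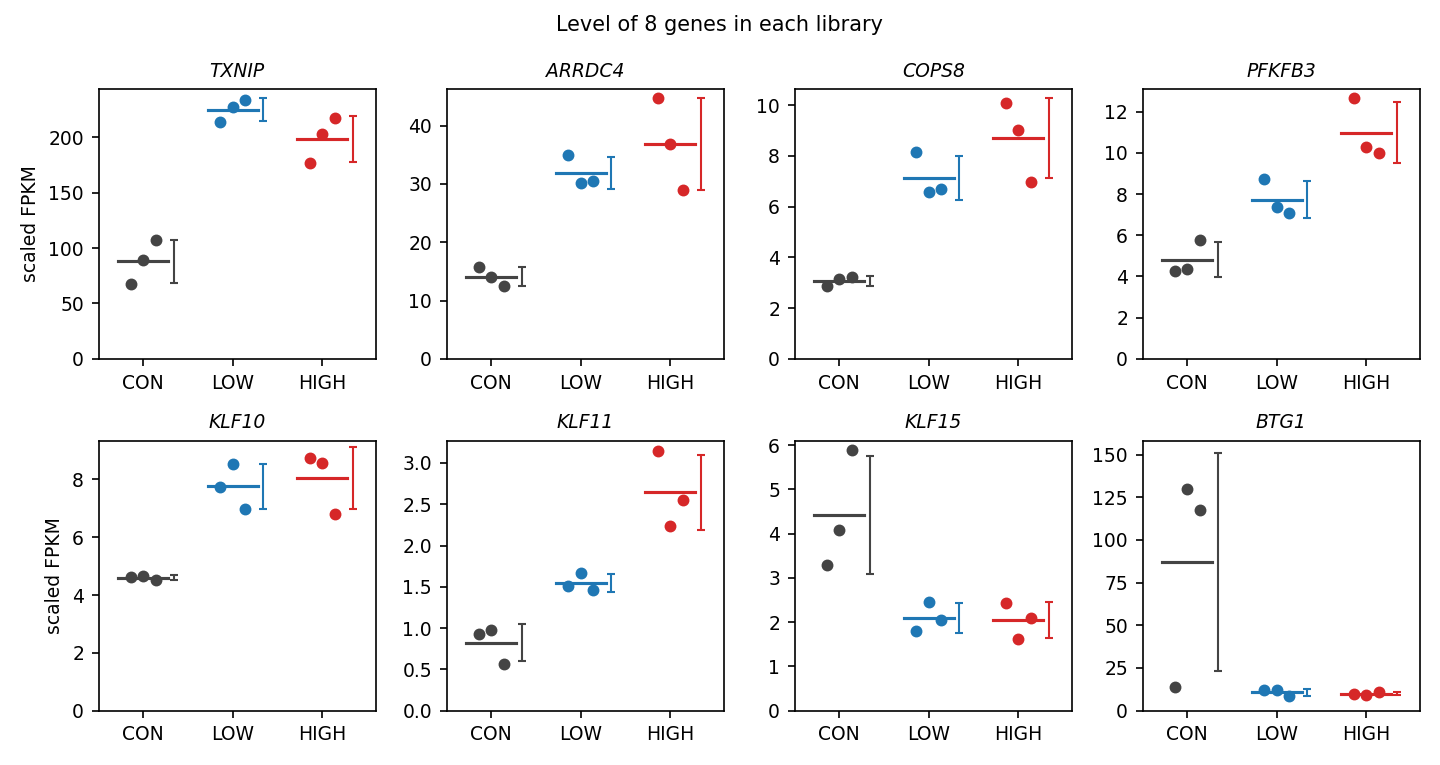
Scaled FPKM (y axis, from 0) of 8 genes in the CON, LOW and HIGH libraries (points, n = 3 per group), with the group mean as a line and the SD as a bar beside it. For TXNIP, ARRDC4, COPS8, PFKFB3, KLF10 and KLF11 the 3 CON points lie below the 6 glucose points; for KLF15 and BTG1 they lie above, in BTG1 by little for CON 1.

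Genes that shift the same way in both glucose groups were counted next. The differences LOW minus CON and HIGH minus CON share the CON libraries, so agreement of their signs is no independent evidence. The signs were the same for 6514 of the 10995 genes (59.2%). A stricter description asks that the 3 CON and 6 glucose libraries do not overlap. With arbitrary labels, over the 84 groupings, a share of 0.0238 of genes would separate so in either direction. Separation held for 181 genes (1.65%), which is below that share, 64 higher with glucose (0.582%) and 117 lower (1.06%). Of these, 42 higher and 62 lower genes differed from CON by more than 0.25 on the log2 scale in both groups, 17 and 18 by more than 0.5, and 4 and 4 by more than 1. With FPKM as deposited the libraries did not overlap for 33 higher and 479 lower genes.

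The 4 higher genes of the last class were TXNIP, COPS8, ARRDC4 and TMEM100, and the 4 lower ones were BTG1, BFSP2, BEX5 and KLF15. TMEM100, BFSP2 and BEX5 were named after their values were seen, and each has a mean below 1 FPKM. TMEM100, a membrane protein of endothelial signalling, had 0.467, 0.384 and 0.0474 in CON and 0.524 to 1.36 with glucose. BFSP2, an intermediate filament protein of the lens, had 0.614, 0.666 and 0.842 in CON, against 0 in LOW 2 and HIGH 2 and at most 0.384 in the others. BEX5 had 0.204, 0.282 and 0.286 in CON, and 0 was listed for 5 of the 6 glucose libraries.

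The higher genes that follow the 3 called ones in the order of p, among those without overlap and with a mean of at least 1 FPKM, were PFKFB3, KLF10, KLF11, AK4, RHCG, ZFP2, SKA2, PDK4 and SLC16A3. None passed the adjustment, so their values are a description. PFKFB3 makes fructose 2,6-bisphosphate, the strongest activator of phosphofructokinase in glycolysis. Its level was 4.26, 4.37 and 5.78 in CON, with LOW at 7.09 to 8.75 and HIGH at 9.99 to 12.7. The 3 groups were ordered by glucose with no overlap, and the pooled log2 fold change was 0.93 (SE 0.14, limma adjusted p 0.330).

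The Kruppel-like factors KLF10 and KLF11 are zinc finger repressors that were first described as genes induced by TGF-beta. KLF10 was the steadiest of the group in CON, at 4.62, 4.67 and 4.53, with 6.81 to 8.73 in the glucose libraries (log2 fold change 0.76, SE 0.12). KLF11 had 0.928, 0.981 and 0.565 in CON, with LOW at 1.46 to 1.67 and HIGH at 2.24 to 3.14 (log2 fold change 1.23, SE 0.20). The limma adjusted p was 0.330 for KLF10 and 0.360 for KLF11. Both have 1 annotated transcript each.

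Among the remaining higher genes, 3 handle energy substrates. AK4, a mitochondrial adenylate kinase, had 3.43, 3.33 and 3.31 in CON and 4.54 to 6.04 with glucose, LOW being the higher of the glucose groups. SLC16A3, the lactate exporter MCT4, had 3.91, 3.61 and 3.84 in CON and 4.53 to 7.44 with glucose. PDK4, the kinase that shuts pyruvate dehydrogenase, had the smallest log2 fold change of the 12 named genes that were higher (0.34), from 15.7, 16.5 and 15.3 in CON to between 18.8 and 20.8. The ammonium transporter RHCG had 1.14, 1.04 and 1.06 in CON and 1.68 to 2.98 with glucose. SKA2, a spindle protein, and the zinc finger gene ZFP2 had log2 fold changes of 0.63 (SE 0.16) and 0.51 (SE 0.11). For SKA2 0% of the FPKM came from annotated transcripts, and 44.3% for ZFP2, which overlaps ZNF454. The annotated transcript of ZFP2 alone had 0.196, 0.509 and 1.15 in CON and 3.10 to 4.92 with glucose, a log2 fold change of 2.86 (SE 0.39, limma adjusted p 0.122).

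On the lower side the 12 named genes were CYP51A1, KLF15, RSAD2, SCD, RAB4A, BTG1, SQLE, MMAB, DBT, AACS, BCL3 and NUDT16L1. KLF15 is a Kruppel-like factor known for driving amino acid breakdown and gluconeogenesis in fasting liver and muscle. Its level was 3.29, 4.09 and 5.89 in CON and 1.61 to 2.45 with glucose (median 2.06), with no overlap and with LOW and HIGH close to each other. The log2 fold change was -1.04 (SE 0.21, limma adjusted p 0.817), the opposite sign to KLF10 and KLF11.

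DBT encodes the core subunit of the dehydrogenase that degrades branched-chain amino acids. It had 16.1, 16.8 and 20.4 in CON, with LOW at 13.7 to 14.1 and HIGH at 10.4 to 13.7 (log2 fold change -0.45, SE 0.12). AACS, which activates acetoacetate for lipid synthesis, had 12.2, 12.2 and 15.1 in CON and 9.54 to 10.7 with glucose. RSAD2, the interferon-induced enzyme viperin, had 11.6, 9.15 and 11.1 in CON, with LOW at 8.19 to 9.14 and HIGH at 5.22 to 6.48, so that LOW lay between CON and HIGH, with LOW 3 just under CON 2.

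For BTG1, BCL3, NUDT16L1 and RAB4A the summed level holds several transcripts. BTG1, an antiproliferative gene, had 13.8, 130 and 118 FPKM in CON and 8.49 to 11.9 with glucose. CON 1 was thus much nearer to the glucose libraries than to the other CON libraries. In CON 2 and CON 3 the difference lay mainly in the 369-base transcript BTG1-201, which had 0.0615, 120 and 109 in CON and 0.0569 to 0.109 with glucose. For this transcript CON 1 lay within the range of the glucose libraries. TCONS_00213193, assembled by the authors, had 3.79, 0.774 and 0.816 in CON and 0.222 to 1.06 with glucose. The longest transcript of BTG1, also assembled by the authors, had 7.33 to 9.92 in CON and 8.09 to 11.1 with glucose. BCL3, an atypical member of the IkappaB family, reversed from a log2 fold change of -0.60 (SE 0.17) to 0.04 with annotated transcripts only, and its antisense transcript BCL3-AS1 accounts for part of the sum. NUDT16L1 had 0% of its FPKM from its annotated transcript and overlaps ANKS3. RAB4A, a small GTPase of recycling endosomes, had 6.55, 5.90 and 6.66 in CON and 3.90 to 5.47 with glucose, and the difference lay in the transcript RAB4A-202, at 2.75 to 4.27 in CON, with LOW at 0.514 to 0.704 and HIGH at 1.72 to 2.64.

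**Figure D2:**
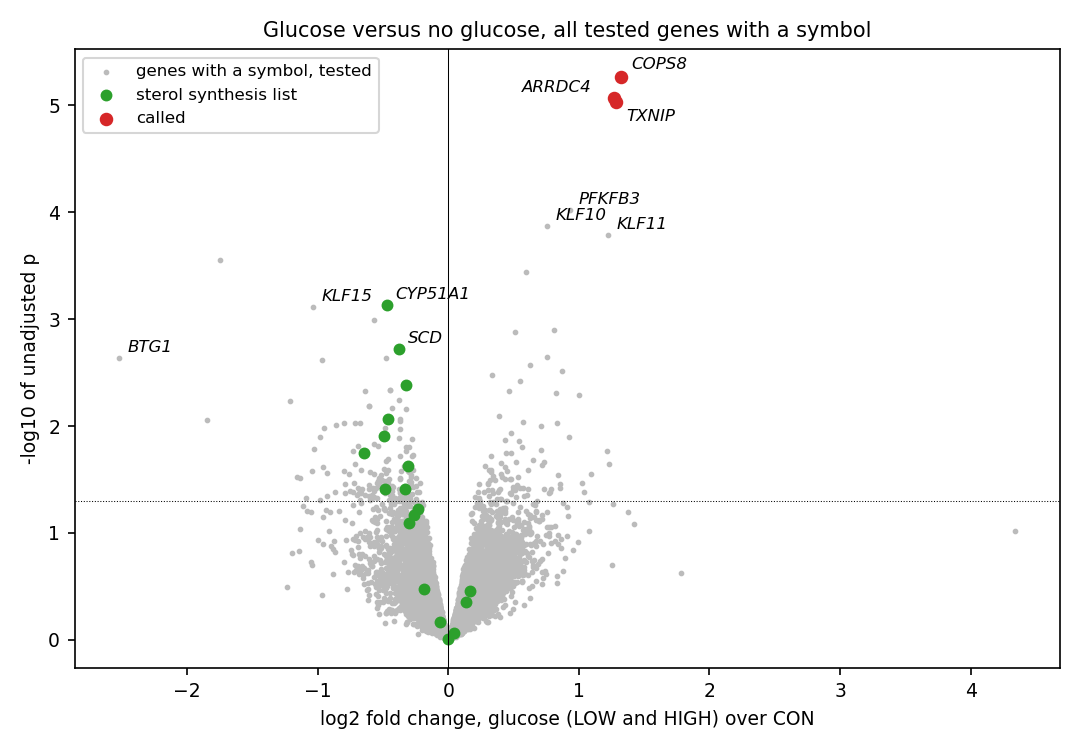
Log2 fold change of glucose over CON (x axis) against -log10 of the unadjusted limma p (y axis) for the 10995 tested genes with a symbol; the dotted line marks p of 0.05. COPS8, ARRDC4 and TXNIP (red) stand apart at the top, and 15 of the 18 genes of the sterol synthesis list (green) lie left of 0.

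The list of SREBP targets, named here after sterol synthesis, had the most members at an unadjusted p under 0.05 in 1 direction. It also holds the regulators SREBF1 and SREBF2 and the fatty acid genes SCD, FASN and ACACA. SCD, FASN and ACACA belong to the list of glucose-induced genes below as well. Of 18 tested and reported, 9 were lower with glucose at that level and 0 higher, where 1.44% of all tested genes were lower. None passed the adjustment over all genes. The median log2 fold change was -0.30 beside -0.02 over all tested genes with a symbol, and 15 of the 18 values were below 0. The libraries did not overlap for 6 genes, all lower with glucose, beside 1.06% of all tested genes. The medians against CON were -0.28 in LOW and -0.38 in HIGH.

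These 6 genes were CYP51A1, SCD, SQLE, HMGCS1, DHCR7 and MSMO1. CYP51A1, the lanosterol demethylase, had 28.5, 26.4 and 28.4 FPKM in CON, with LOW at 21.1 to 22.2 and HIGH at 17.2 to 20.4. The 3 groups were ordered against glucose without overlap, with a log2 fold change of -0.47 (SE 0.10, limma adjusted p 0.817). SQLE, squalene epoxidase, had 42.1, 38.4 and 41.9 in CON and 31.0 to 33.7 with glucose, with a log2 fold change of -0.32 (SE 0.09). The fatty acid desaturase SCD had 30.0, 26.6 and 27.8 in CON and 21.1 to 22.8 with glucose, with a log2 fold change of -0.37 (SE 0.09). In SQLE and SCD the 6 glucose libraries were closer to each other than to CON, with no order between LOW and HIGH.

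HMGCS1, which condenses the first unit of the mevalonate pathway, had 114, 125 and 156 in CON, with LOW at 103 to 106 and HIGH at 74.3 to 103 (log2 fold change -0.46, SE 0.14). DHCR7, the last reductase of the pathway, had 15.97, 17.3 and 24.2 in CON and 10.6 to 15.2 with glucose (log2 fold change -0.50, SE 0.16). MSMO1, the sterol methyl oxidase, had 48.9, 48.0 and 60.3 in CON and 37.9 to 46.8 with glucose. The other genes at an unadjusted p under 0.05, MVD, INSIG1 and NSDHL, had log2 fold changes of -0.65, -0.48 and -0.33, with at least 1 glucose library inside the range of CON.

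Not all members of the list lay below CON. IDI1, the isopentenyl diphosphate isomerase, had 12.5, 9.52 and 5.14 in CON and 7.61 to 12.9 with glucose (log2 fold change 0.04, SE 0.26). The regulators SREBF1 and SREBF2 had log2 fold changes of 0.13 (SE 0.17) and 0.17 (SE 0.17). MMAB, a cobalamin adenosyltransferase that is not on the list, begins at position 63274140 of chromosome 17, beside MVK, which ends at 63274002. MMAB had 13.2, 14.3 and 17.4 in CON and 8.94 to 12.5 with glucose, and MVK had 5.22, 5.71 and 5.85 in CON and 3.46 to 5.81 with glucose. Without CON 3 the list had 5 genes lower at an unadjusted p under 0.05 in place of 9, with a median of -0.29; without each other library it had 6 to 11. Without CON 1, 7.33% of all tested genes passed as lower, and the list had 10.

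**Figure D3:**
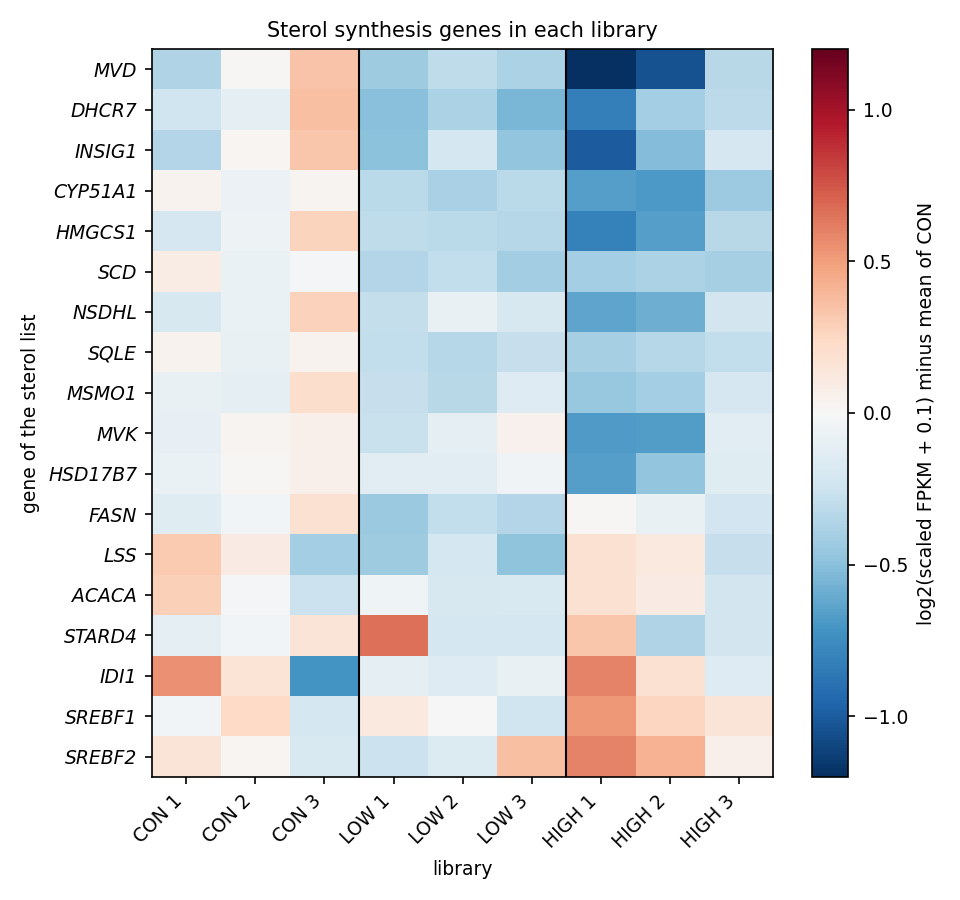
Genes of the sterol synthesis list (rows, ordered by pooled log2 fold change) in each library (columns), coloured by log2(scaled FPKM + 0.1) minus the mean of the 3 CON libraries. The upper rows are blue in all or most glucose libraries, with the deepest values in HIGH 1 and HIGH 2, and IDI1, among the lowest rows, differs most within CON, between CON 1 and CON 3.

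The list of glucose-induced genes (targets of MondoA and ChREBP) had 24 members tested, of which 2, TXNIP and ARRDC4, were called. It also holds the genes of the factors themselves, MLXIP and MLXIPL, and of their partner MLX. At an unadjusted p under 0.05, 5 were higher and 3 lower, beside 0.864% and 1.44% of all tested genes. The higher ones were TXNIP, ARRDC4, KLF10, KLF11 and PFKFB3. The lower ones were KLF15, SCD and the fructose kinase KHK, whose levels were 2.18, 2.15 and 2.95 in CON and 1.22 to 2.22 with glucose. Over the whole list the median was 0.04, and its members lay on both sides of 0 (13 above, 11 below). The glycolytic hexokinase HK2, a further member, had 4.84, 2.71 and 1.51 in CON and 1.88 to 9.30 with glucose, and its log2 fold change of 0.23 (SE 0.41) took the opposite sign without CON 3 or without HIGH 1. Without CON 1 the list had 6 lower genes in place of 3, and also with FPKM as deposited. Of all tested genes, 7.33% were lower without CON 1 and 4.87% with FPKM as deposited.

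Glucose transport and glycolysis had 24 genes tested, 0 of them called. At an unadjusted p under 0.05, 0 were lower, beside 1.44% of all tested genes, and 4 higher, beside 0.864%. Besides PFKFB3 and SLC16A3 these were the neuronal-type glucose transporter SLC2A3, at 1.4, 0.895 and 0.563 in CON and 1.17 to 1.78 with glucose, and the liver phosphofructokinase PFKL, at 4.42, 4.13 and 3.71 in CON, with LOW at 4.14 to 5.02 and HIGH at 5.20 to 11.3. In both the libraries overlapped, in PFKL between CON and LOW, where the differences from CON were 0.13 in LOW and 0.93 in HIGH (HIGH against LOW, limma unadjusted p 0.0101). SLC2A1, the ubiquitous glucose transporter, had 43.5, 42.3 and 47.2 in CON and 34.5 to 50.7 with glucose (log2 fold change -0.10, SE 0.13). The median of the list was 0.09. The lowest member was the insulin-sensitive transporter SLC2A4, below 0.23 FPKM in all libraries, with a log2 fold change of -0.69 (SE 0.43). The 4 genes of this list became 2 without CON 2, LOW 1, LOW 2 or HIGH 2 and with FPKM as deposited, and 6 without CON 1. In the fit without CON 1, 7.7% of all tested genes were higher at an unadjusted p under 0.05.

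The list of hypoxia targets had 12 members tested, with a median of 0.17. At an unadjusted p under 0.05, 3 were higher and 0 lower, beside 0.864% and 1.44% of all tested genes. BNIP3, a mitophagy receptor, had 28.7, 40.1 and 39.8 in CON and 43.8 to 56.8 with glucose, without overlap (log2 fold change 0.46, SE 0.13). The pyruvate dehydrogenase kinase PDK1 had 9.34, 8.96 and 11.4 in CON and 10.8 to 14.4 with glucose, and ANKRD37 had 0.914, 1.4 and 1.52 in CON and 1.5 to 2.26 with glucose. ADM, a vasodilator peptide gene, had 18.2, 28.3 and 37.9 in CON and 17.3 to 30.0 with glucose. The 3 higher genes became 1 without CON 2 and 2 without CON 1, LOW 1, LOW 3 or HIGH 2. Without CON 1 the list also had 1 lower gene, in a fit where 7.33% of all tested genes were lower and 7.7% higher.

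Lack of glucose is known to raise the glucose-regulated chaperones of the endoplasmic reticulum and the amino acid response of ATF4. Of the 20 chaperone genes tested, 0 passed at an unadjusted p under 0.05 in either direction, and the median was -0.06. At that level 2.30% of all tested genes passed, so that few or none of a list of this size would. HSPA5, the leading chaperone of the group, had 225, 208 and 245 FPKM in CON and 202 to 227 with glucose (log2 fold change -0.06, SE 0.10). Of 29 genes of the ATF4 list, which holds ATF4 and its targets, 1 was higher and 1 lower at that level, with a median of -0.02. The higher one was the secreted glycoprotein gene STC2, at 0.683, 0.694 and 0.911 in CON, with LOW at 0.817 to 1.12 and HIGH at 1.68 to 1.91, and the lower one was CTH of cysteine synthesis (log2 fold change -0.37, SE 0.13). Asparagine synthetase ASNS had 17.7, 15.1 and 13.3 in CON and 15.5 to 20.2 with glucose (log2 fold change 0.15, SE 0.13). DDIT3 had 2.53, 1.39 and 2.74 in CON and 1.27 to 2.88 with glucose (log2 fold change -0.03, SE 0.28); 0% of its FPKM came from its annotated transcript, and it overlaps MARS. Without CON 1 the chaperones had 1 higher and 3 lower genes and the ATF4 list 1 higher and 3 lower. In that fit 7.7% of all tested genes were higher and 7.33% lower.

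**Figure D4:**
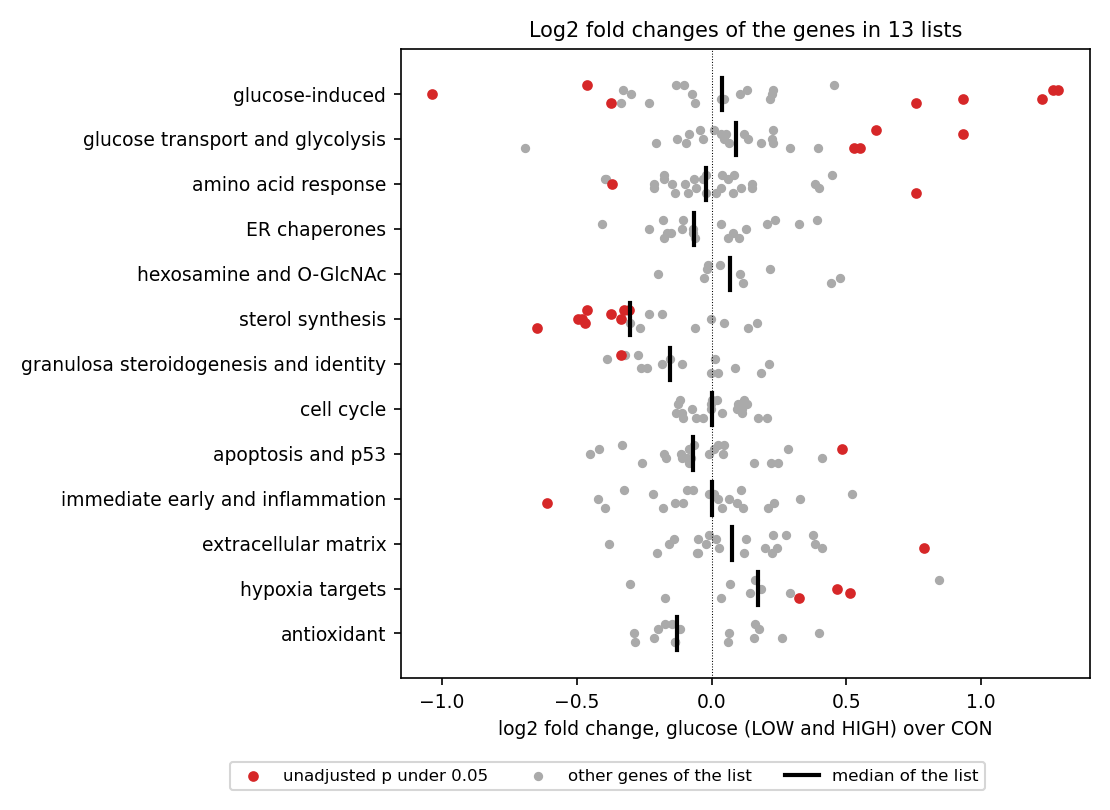
Log2 fold change of glucose over CON (x axis) for each tested gene of 13 lists (rows); red points have an unadjusted limma p under 0.05 and black bars are list medians. The sterol list has 9 red points, all below 0, and the glucose-induced list has 5 above and 3 below.

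In the list of granulosa steroidogenesis and identity, 1 of 15 tested genes passed at an unadjusted p under 0.05, beside 2.30% of all tested genes. This was STAR, which carries cholesterol into the mitochondrion, at 6.14, 6.74 and 7.94 in CON, with LOW at 6.08 to 7.09 and HIGH at 3.83 to 5.56, so that LOW overlapped CON and HIGH lay below it. FSHR had a log2 fold change of -0.27 (SE 0.28), and the median of the list was -0.15. Of 24 genes of apoptosis and p53, BCL2, which protects from apoptosis, was the 1 gene at that level, at 0.678, 0.423 and 0.633 in CON and 0.690 to 0.984 with glucose (log2 fold change 0.48, SE 0.21). Among genes with a negative log2 fold change GADD45B had the smallest p, with a log2 fold change of -0.45 (SE 0.22). The 21 cell cycle genes had 0 at that level and a median of 0.00.

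The immediate early and inflammation list had 1 gene of 22 at an unadjusted p under 0.05, a level that 2.30% of all tested genes reached. It was the chemokine gene CCL2, at 1.77, 2.45 and 2.13 in CON and 0.990 to 2.57 with glucose. The hexosamine list had 0 of 10, with a median of 0.07, and the antioxidant list 0 of 16, with a median of -0.13. The extracellular matrix list had 1 of 22, COL1A1, whose levels differed within and between the glucose groups: 31.3, 28.1 and 16.4 in CON, with LOW at 23.6 to 27.8 and HIGH at 38.9 to 124. Its pooled log2 fold change of 0.79 (SE 0.33) thus joins a LOW difference of 0.05 with a HIGH difference of 1.53. The single genes of these lists rest on few libraries: in the 9 fits without 1 library, the unadjusted p was under 0.05 in 3 for STAR, 3 for BCL2, 3 for CCL2 and 2 for COL1A1. Without CON 1 the granulosa list had 5 lower genes and the extracellular matrix list 4 higher ones. In that fit 7.33% of all tested genes were lower and 7.7% higher.

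LOW and HIGH were compared with each other because pooling assumes that they are alike with respect to CON. Of the 10995 genes, 0 differed at a limma adjusted p under 0.05, and 917 did at an unadjusted p (8.34%), 599 higher in HIGH (5.45%) and 318 lower (2.89%). The 3 called genes passed at neither level. HIGH minus LOW was -0.18 for TXNIP (SE 0.17, limma p 0.314), 0.19 for ARRDC4 (SE 0.17, limma p 0.294) and 0.27 for COPS8 (SE 0.17, limma p 0.134), which does not show that the glucose groups were equal.

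Of the 24 named genes, 5 differed between LOW and HIGH at an unadjusted p under 0.05, beside 8.34% of all tested genes. At an adjusted p 0 did (lowest 0.595). PFKFB3 and KLF11 were higher in HIGH, by 0.50 and 0.73 on the log2 scale. CYP51A1 and RSAD2 were lower in HIGH, with differences of -0.25 and -0.57. In these 4 genes HIGH lay farther from CON than LOW did. RAB4A was the exception, with a difference of 0.33, HIGH lying nearer to CON.

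**Figure D5:**
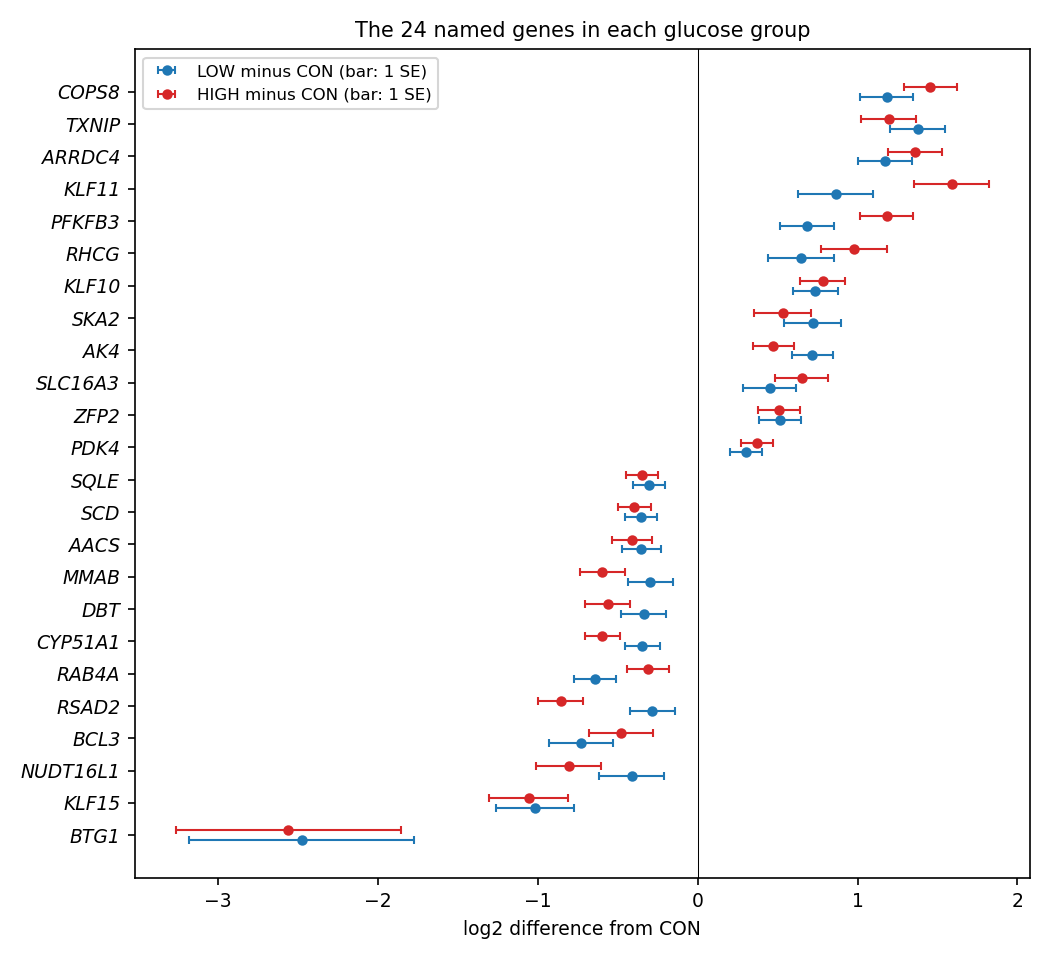
Log2 difference from CON (x axis) of LOW (blue) and HIGH (red) for the 24 named genes (y axis), with bars of 1 SE; both differences use the same CON libraries. All genes lie on the same side of 0 in both groups because the rule chose them so, and KLF11, PFKFB3 and RSAD2 show the widest gaps between LOW and HIGH.

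The make-up of the libraries was compared in the same way. Small RNA genes took 61.8% of the FPKM in CON (SD 8.67, n = 3) and 59.6% with glucose (SD 16.3, n = 6), with 30.3% in HIGH 1 as the lowest library (two-sided exact permutation test over 84 groupings, p 0.976, smallest possible 0.0238). By replicate number the share was 52.1, 64.8 and 68.6% in CON, 67.0, 69.4 and 72.1% in LOW, and 30.3, 50.7 and 68.2% in HIGH. The permutation test compares the means of CON and glucose and does not address this spread within the groups. Whether the share goes with the levels of single genes was not tested. Log2 levels correlated with r of 0.910 to 0.976 between libraries, lowest on average for CON 3 and HIGH 1. Leaving out CON 1 raised the number of genes at an unadjusted p under 0.05 from 253 to 1644, and leaving out HIGH 3 raised it to 460, whereas leaving out any other library gave 153 to 191. Without CON 1 the called genes were BTG1 and PLN, and neither TXNIP, ARRDC4 nor COPS8 was among them; BTG1 and PLN were named here after their values were seen, PLN having a log2 fold change of -1.04 (SE 0.40) with all libraries.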

How the data were processed

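GCs were cultured, sequenced and processed by the authors, who used Hisat2 for alignment, Stringtie for transcript assembly and HTSeq 0.6.0 for counting and deposited FPKM per gene and per transcript. The submitters' processing notes also list TopHat2, TopHat and STAR 2.5.1b, with no role given. The deposited tables of read counts were classed as a score, since their values lie within 3 percent of FPKM times genomic span times a factor per library; they were not used as counts, and the edgeR and DESeq2 fits planned for counts were not run. The deposited genome build is not given in the sources used here.

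Gene FPKM sum all transcripts of a gene, including assembled and antisense ones. Scaling set each library to a common median, taken over genes at FPKM 1 or higher in all libraries, Ensembl genes without a symbol separately because their FPKM carry another library factor. The fit used limma 3.58.1 in R 4.3.3, with log2(FPKM + 0.1) as response, CON, LOW and HIGH in 1 model, and the spread modelled as a function of the mean level, for genes of at least 300 bases that reached 0.1 FPKM in 3 or more libraries; the contrast was the mean of LOW and HIGH minus CON. Benjamini-Hochberg adjustment ran over all genes tested, and a call needed an adjusted p below 0.05 with a log2 fold change beyond 1 in either direction. The procedure was tested on simulated data. Figures were drawn in Python 3.11.15 with matplotlib.

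Groups came from the labels, and 0 columns were left without a sample. Named genes were those called, then, up to 12 in each direction, the non-overlapping genes of smallest p with a mean FPKM of 1 or more and the same sign in both glucose groups; 10 genes listed by name, some of them also among the former, of which CYP19A1 had no row; and the members of 13 lists that belonged to these or had the smallest p of their list in a direction. The sterol list is described without 3 members that are not reported here, and SLC2A3, PFKL, KHK, PDK1 and ANKRD37 were named after their values were seen. The members and lists were chosen with earlier results of these data known. Alternatives were LOW and HIGH as 1 group, a pseudocount of 1, no filter, a stricter filter, FPKM as deposited, genes with a symbol only, adjusted p alone, the replicate number as a block, each library left out and, added after seeing the data, annotated transcripts only. No sequences were read.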

Additional observations from a re-analysis of the deposited data

Results flagged for a closer look

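In 3 of 53 genes examined, the lowest or highest of the 6 glucose libraries stood farther from its neighbour than Dixon's 95% criterion allows, measured as the gap over the whole range on the log2 scale; chance flags about 1 in 20. The ratio was 0.678 for RHCG, where HIGH 1 was highest at 2.98 FPKM, 0.667 for ASNS, where HIGH 3 was highest at 20.2, and 0.641 for NAGK, where HIGH 1 was highest at 4.06.

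Outside the genes with a symbol, 3 genes passed the same thresholds. XLOC_077652, assembled by the authors at 17:17003415-17018282, had 1.18, 1.44 and 1.08 FPKM in CON and 6.04 to 9.03 with glucose, with a log2 fold change of 2.52 (SE 0.16, limma adjusted p 5.0e-04). ENSOARG00000012662 was listed at 0 in CON and HIGH and at 1.96 to 2.55 in LOW (pooled log2 fold change 2.28). ENSOARG00000008115 had 30.3 to 36.7 in HIGH, while each CON and LOW library listed 0 (pooled log2 fold change 4.19). Both of these genes met the filter on low values through 1 glucose group, and their log2 fold changes are set by the pseudocount, so they are given as levels and not as a tested difference.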

How the results depend on the processing

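The number of genes called (3) was 1 with no filter (BEX5, lower with glucose, and none of the 3), 1 with FPKM as deposited (TXNIP), and 0 to 2 without 1 library. The number of non-overlapping genes (181) was 512 with FPKM as deposited and 224 to 1129 without 1 library, the highest without CON 1. Replicate numbers were not taken to pair the libraries, since not all same-numbered pairs correlated (correlation of same-numbered deviations -0.03 to 0.42, over 0.1 in 5 of 9 pairs; 6 of 9 libraries correlated best with their own number); with the replicate block 2 genes were called, ARRDC4 and TXNIP, COPS8 having a limma adjusted p of 0.0515, and 577 passed at an unadjusted p under 0.05 in place of 253. The correlation was 0.41 for CON 1 with HIGH 1 and 0.42 for CON 3 with HIGH 3. It was -0.43 for CON 1 with HIGH 3 and -0.41 for CON 3 with HIGH 1. Whether libraries of the same number share an effect was not tested beyond the block. Annotated transcripts only called ARRDC4, TXNIP and CASD1. The edgeR and DESeq2 fits were not run, since the count tables are rescaled FPKM. All 24 named genes kept an unadjusted p under 0.05 in each of the 9 fits without 1 library, though they were chosen by that p.

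The difference in small RNA share (-2.21 percentage points) was 2.03 outside assembled genes and -7.09 to 3.66 without 1 library. Of 66 named genes, 10 changed sign under some alternative, none of them called. With annotated transcripts only BCL3 was 0.043, AMHR2 -0.60, ADM 0.28 and SREBF1 -0.018; with FPKM as deposited IDI1 was -0.023; with a pseudocount of 1 STARD4 was 0.00074. Without 1 library the log2 fold change ran from -0.18 to 0.63 for HK2, -0.32 to 0.14 for DDIT3, -0.26 to 0.0038 for MCM3, -0.45 to 0.071 for ADM, -0.32 to 0.32 for IDI1, -0.15 to 0.073 for STARD4 and -0.19 to 0.079 for ACACA; the cause was not tested.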
